A study of Mus musculus with 6 samples.

Results

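Imprinted genes are genes of which mainly the copy from 1 parent is used, the other copy being held silent. The silent and the active copy are told apart by DNA methylation laid down in the egg or the sperm at control regions, each of which usually serves a cluster of neighbouring genes. Many imprinted genes act in growth, placenta, feeding and social behaviour, and in the brain several have their highest levels in the hypothalamus and other deep nuclei. DNA topoisomerase II beta, encoded by Top2b, cuts and rejoins both strands of DNA to free tangles and supercoils, and in neurons it is best known for the transcription of long genes. In cultured mouse neurons, topoisomerase inhibitors switch on the normally silent paternal copy of the imprinted gene Ube3a.

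The members were 43 genes picked by name from a table of 78298 gene identifiers, and their genotype difference in these libraries was known when they were put forward. Their values between the genotypes are therefore a description of these 6 libraries, and nothing is supported by them. The 43 genes lie in 19 imprinted clusters on 10 chromosomes. From what is known in mouse, 23 were counted as paternal and 18 as maternal, while Gnas differs by transcript and the allele of Begain was not assigned. For some the class holds only in part, and whether it holds in adult brain was not measured for any member. The cases named next are not a full list. Grb10 was counted as paternal and Ube3a as maternal for neurons, and Igf2r as maternal outside neurons. Inpp5f is paternal in a single variant and H13 maternal in its long forms, while Commd1, Blcap and Trappc9 have only a maternal bias. All 43 were above 0 in at least 1 library, and 40 had a mean of at least 10 normalised counts, the minimum set for testing. The counts do not separate the parental alleles, so every value is the summed output of both copies.

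The data were bulk RNA-seq profiles of polyadenylated RNA from the left brain of male mice, 3 Top2b-low and 3 wild type (WT). Top2b-low mice are homozygous for a Top2b gene that carries an auxin-inducible degron (AID) sequence, inserted with CRISPR/Cas9 at the 5′ end of its coding sequence. No drug was given to either genotype, and the labels give an age of 10 weeks in the protocols and 3.5 months in the series text. Whether the mice were littermates, and their strain, were not given in the labels. The names of 2 libraries, replicate 3 of each genotype, start with N22, and that Top2b-low library is named dNdN where the other Top2b-low libraries are named Homo; the labels do not say what N22 or dNdN means.

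Library totals were 17237421, 17413959 and 35246703 reads in Top2b-low and 17348164, 16963067 and 28629911 reads in WT. Top2b itself measured 2152, 2314 and 1965 normalised counts in the Top2b-low libraries, against 3160.4, 3014 and 2485 in the WT libraries. The groups did not overlap, the mean was 25.7% lower in Top2b-low, and an exact two-sided permutation test gave p = 0.1, the smallest that 3 against 3 libraries allow. The N22 libraries stood apart from the other 4 in cerebellar genes: Gabra6, a receptor subunit of cerebellar granule cells, measured 2073, 2033 and 0.592 normalised counts in Top2b-low and 2348, 2020.3 and 0.711 in WT, and all 16 cerebellar markers passed the test as lower in N22. The tissue labelled as left brain thus held almost no granule cell RNA in 1 library of each genotype. For the 6 pan-neuronal markers, the median deviation from the mean over libraries ran between −0.05 and 0.05 log2 units. Between the genotypes limma called 0 markers of any list. DESeq2 with a term for N22 called 1 hypothalamic neuropeptide gene, 1 hypothalamic transcription factor and 1 astrocyte marker, all lower. It called 14 genes lower in all (0.0805% of all tested genes). Values were lower in Top2b-low for 4 of 11 endothelial and pericyte, 8 of 12 meningeal, 8 of 12 choroid plexus and 4 of 6 astrocyte markers. The same held for 6 of 6 oligodendrocyte, 3 of 6 microglial, 2 of 4 Y-linked, 10 of 16 cerebellar and 2 of 6 pan-neuronal markers. Over all tested genes, 50.6% were lower.

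Of the 10 members whose genotype groups do not overlap, 5 were picked by name and by no set rule. The stretches of DNA just before the start of these 5 are shown first. They are RefSeq promoter sequences of build GRCm38.p6, 250 bases ending at the start site, on the strand of the gene, with each CpG, the dinucleotide that carries methylation, in capitals. The positions are chr7:6696433-6696682, minus strand for Zim1, chr6:58907127-58907376, minus strand for Nap1l5, chr7:62348027-62348276, plus strand for Ndn, chr12:109452573-109452822, plus strand for Dlk1 and chr10:13090582-13090831, plus strand for Plagl1.
Zim1: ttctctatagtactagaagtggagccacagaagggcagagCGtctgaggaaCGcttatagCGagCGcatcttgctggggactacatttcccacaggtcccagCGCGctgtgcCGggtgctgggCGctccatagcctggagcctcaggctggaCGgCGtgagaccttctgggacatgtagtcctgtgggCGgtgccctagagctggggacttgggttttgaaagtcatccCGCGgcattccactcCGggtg
Nap1l5: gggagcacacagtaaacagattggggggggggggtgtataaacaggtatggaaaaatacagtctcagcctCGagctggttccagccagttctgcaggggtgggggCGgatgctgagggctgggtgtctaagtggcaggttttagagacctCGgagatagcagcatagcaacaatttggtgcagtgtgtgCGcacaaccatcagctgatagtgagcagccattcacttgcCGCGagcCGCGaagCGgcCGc
Ndn: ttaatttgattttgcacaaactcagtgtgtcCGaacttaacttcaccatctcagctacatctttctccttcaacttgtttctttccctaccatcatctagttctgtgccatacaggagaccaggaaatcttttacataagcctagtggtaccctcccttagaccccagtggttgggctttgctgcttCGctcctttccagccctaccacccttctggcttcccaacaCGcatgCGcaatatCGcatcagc
Dlk1: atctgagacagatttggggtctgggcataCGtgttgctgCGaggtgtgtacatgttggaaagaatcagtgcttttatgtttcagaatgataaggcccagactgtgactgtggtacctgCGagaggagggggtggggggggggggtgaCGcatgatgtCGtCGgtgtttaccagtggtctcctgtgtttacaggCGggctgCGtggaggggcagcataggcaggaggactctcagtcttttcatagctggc
Plagl1: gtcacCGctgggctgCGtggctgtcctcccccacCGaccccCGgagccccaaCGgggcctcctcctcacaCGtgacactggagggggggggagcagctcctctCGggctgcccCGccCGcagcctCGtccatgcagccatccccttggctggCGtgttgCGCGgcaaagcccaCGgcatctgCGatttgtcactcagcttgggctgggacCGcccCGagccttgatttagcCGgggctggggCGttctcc

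Plagl1 held 19 CpGs, Zim1 14, Nap1l5 10, Dlk1 8 and Ndn 5. Across the 57 annotated starts of the 36 members with a promoter entry the median was 11 CpGs, against 6 over all 32851 promoters in the table. The letters TGCCGC, which ZFP57, a zinc-finger protein that protects methylation at imprinted control regions, binds when they are methylated, were searched on both strands. They occurred before 8 of the 57 member starts (14%) and before 8.68% of all promoters. The members with a match were Calcr, Copg2, Meg3, Mest, Nap1l5, Plagl1 and Zim1. Grb10, Gnas, Mirg and Usp29, whose genotype groups also do not overlap, had none, so the 5 promoters shown do not stand for the members. No methylation or binding was measured in these samples, so a match is only a run of letters.

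Peg3 and Usp29 start back to back, and the 163 bases between their starts are shown because both genes are read from it in opposite directions (chr7:6730420-6730582, plus strand, 5 CpGs).
Peg3-Usp29: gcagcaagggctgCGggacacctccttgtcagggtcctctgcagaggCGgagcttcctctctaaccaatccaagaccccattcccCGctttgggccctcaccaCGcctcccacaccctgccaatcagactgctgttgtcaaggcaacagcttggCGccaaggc

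The members spanned a very wide range of levels in the brain. Per kilobase of annotated exon, the mean over the 6 libraries was highest for the splicing protein gene Snrpn, at 7169 normalised counts, followed by the noncoding RNA Meg3 at 5460.0 and the nucleosome assembly protein gene Nap1l5 at 4856. The G protein subunit gene Gnas had 2037, neuronatin (Nnat) 1782, Ndn 1306 and Peg3 1037 normalised counts per kilobase. At the other end lay H19 with 4.78, Slc22a18 with 4.39, Peg12 with 0.954 and Phlda2 with 0.106.

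Among the 40 tested members, 33 had a log2 fold change below 0 between Top2b-low and WT (82.5%, where 50.6% of all 17391 tested genes did), and the median was −0.13 against −0.002 over all tested genes. All 3 Top2b-low libraries were below all 3 WT libraries for 10 members: Dlk1, Zim1, Ndn, Grb10, Nap1l5, Plagl1, Usp29, Mirg, Sgce and Gnas (25%, where 3.04% of all tested genes were). No member had the reverse pattern, which 2.7% of all tested genes had. The limma test, Benjamini-Hochberg adjusted over all tested genes, called 0 members and 0 genes in all, with an adjusted p of 0.99997 for each of the 40. At an unadjusted p under 0.05, limma counted 8 members, all lower (20%, where 0.995% of all tested genes were lower and 0.512% higher at that p), and 262 genes in all. With the replicate number as a block, limma again called 0 members, and at that unadjusted p it counted 15 members lower and 1, Ppp1r9a, higher (3.46% and 3.27% of all tested genes). On recovered reads, edgeR and DESeq2 also called 0 members, with 250 and 166 genes in all at an unadjusted p under 0.05.

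**Figure D1:**
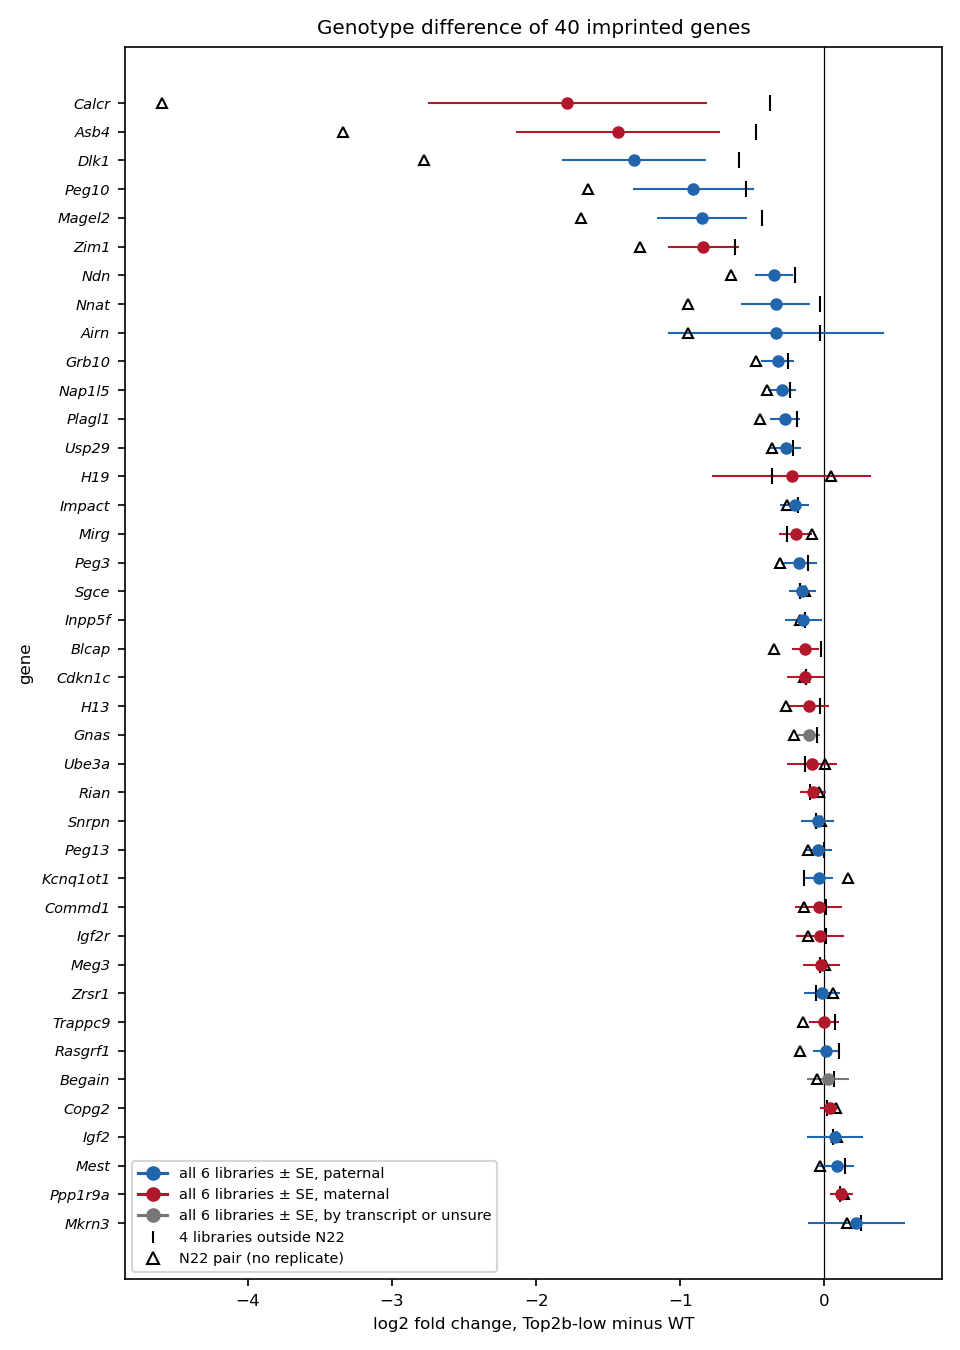
Log2 fold change (Top2b-low minus WT, x axis) of the 40 tested imprinted genes (y axis), as dots with their standard error in colours for the expressed parental allele, with the value in the 4 libraries outside N22 as a tick and in the N22 pair as an open triangle. Calcr, Asb4, Dlk1, Peg10, Magel2 and Zim1 lie farthest to the left, and their triangles lie farther left than their ticks.

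The low values were unevenly spread over the Top2b-low libraries. Relative to all 3 WT libraries, 11 tested members were lower in Top2b-low replicate 1 (27.5%, where 18.3% of all tested genes were), 21 in replicate 2 (52.5%, where 24% were) and 26 in replicate 3 (65%, where 26.5% were). Above all 3 WT libraries were 3, 3 and 4 members in those libraries (7.5%, 7.5% and 10%, where 18.9%, 22.9% and 27.2% of all tested genes were). The median member lay at −0.05, −0.15 and −0.32 log2 units from its WT mean in those libraries. Top2b-low replicate 3 was the lowest of the 6 libraries for 22 of the 40 members (21.9% of all tested genes), Top2b-low replicate 2 for 8 (18.1% of all tested genes) and Top2b-low replicate 1 for 0 (10.9% of all tested genes). In the 4 libraries outside N22, 30 of the 40 members were lower in Top2b-low (75%, where 51.7% of all tested genes were), with a median of −0.10, and both Top2b-low libraries were below both WT libraries for 15 (37.5%, where 18% were) and above them for 1 (2.5%, where 16.1% were). In the N22 pair, 31 were lower in the Top2b-low library (77.5%, where 48.1% were), with a median of −0.16 and no replicate check; 25 were lower in both subsets.

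**Figure D2:**
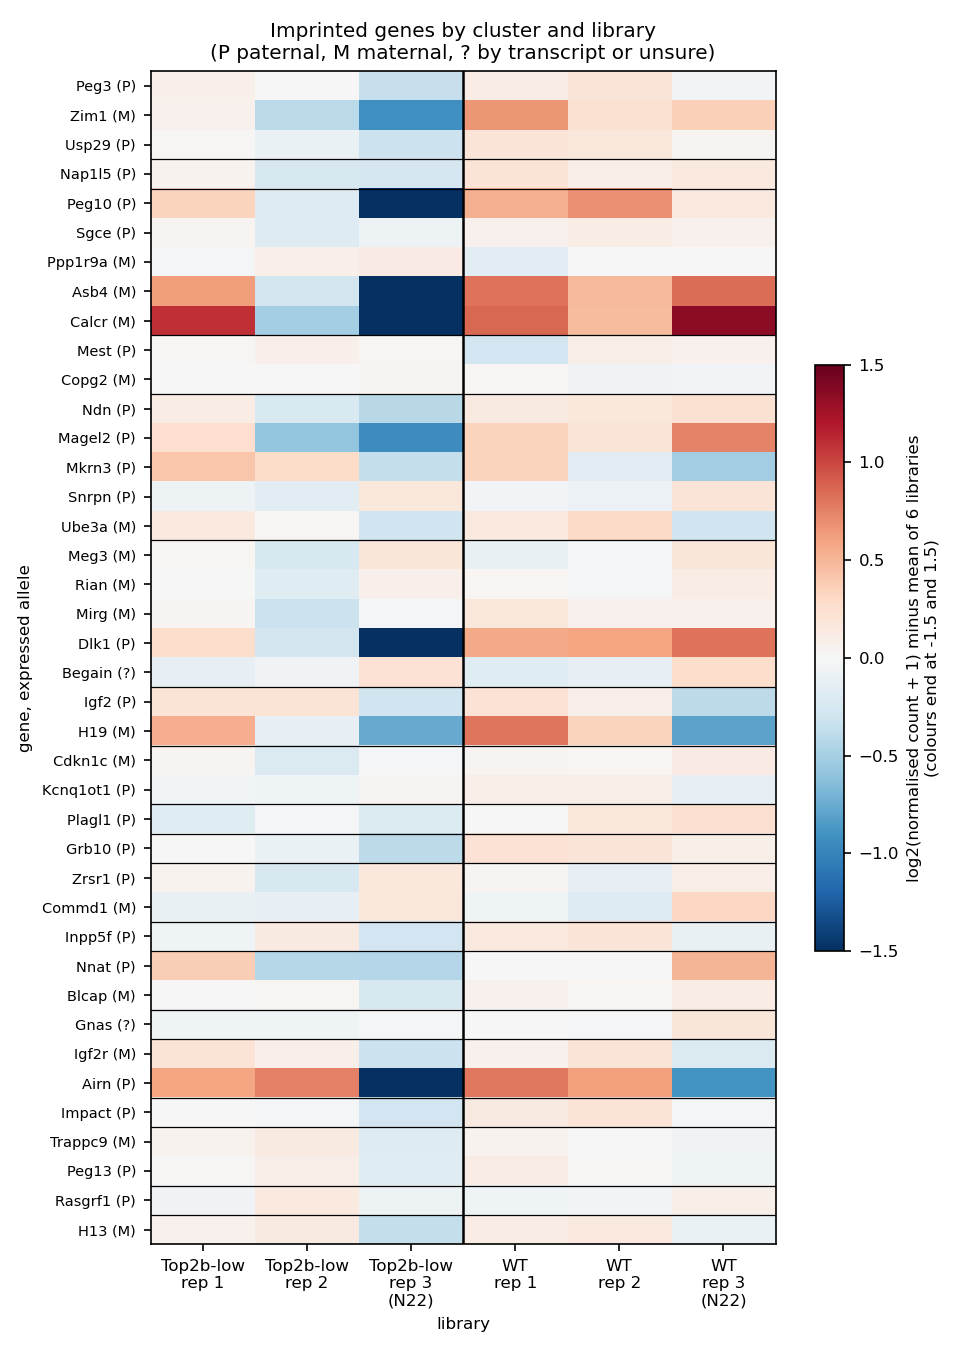
Level of each tested imprinted gene (rows, grouped by cluster) in each library (columns, Top2b-low left and WT right), as log2(normalised count + 1) minus its mean over the 6 libraries. The deepest blue cells are those of Peg10, Asb4, Calcr, Dlk1 and Airn in Top2b-low replicate 3, where the colour scale ends.

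Markers of hypothalamic neurons also had low medians in Top2b-low replicates 2 and 3. Of 16 hypothalamic neuropeptide genes, 12 were tested and 9 were lower in Top2b-low, where 50.6% of all tested genes were. The median log2 fold change was −1.72, or −0.96 without the N22 libraries. The groups did not overlap for 5 of the 12, all lower, where 3.04% of all tested genes were lower without overlap. The summed level of the 16 was 3998, 2467 and 4684 normalised counts in the Top2b-low libraries, against 4031, 3799 and 6514 in the WT libraries. Avp, the vasopressin gene, had 148, 3.64 and 4.73 normalised counts in the Top2b-low libraries, against 182, 167 and 282 in the WT libraries, so it was near the floor of 3 reads (1.77 to 3.76 normalised counts) in Top2b-low replicates 2 and 3 only. Galanin (Gal) had 34.5, 12.1 and 8.87 normalised counts in the Top2b-low libraries, against 69.2, 45.1 and 88.2 in the WT libraries, and thyrotropin-releasing hormone (Trh) 149, 25.5 and 46.7 normalised counts in Top2b-low, against 165, 174 and 255 in WT. Kiss1 was at 0 in Top2b-low replicates 1 and 3 and in WT replicates 1 and 2, and Agrp in Top2b-low replicate 2.

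Of 13 hypothalamic transcription factors, 7 were tested and 6 were lower, where 50.6% of all tested genes were. The groups did not overlap for 3 of the 7, all lower, where 3.04% of all tested genes were lower without overlap. Summed levels of the 13 were 792, 691 and 812 normalised counts in Top2b-low, against 873, 886 and 1122 in WT. Nkx2-1, which specifies the ventral hypothalamus, had 29.5, 13.4 and 13.02 normalised counts in the Top2b-low libraries, against 61.9, 55.1 and 65.4 in the WT libraries, and its groups did not overlap. Fezf1 had 16.0, 2.43 and 0 normalised counts in Top2b-low, against 21.9, 20.1 and 33.4 in WT, and Otp 55.4, 8.50 and 2.37 normalised counts in Top2b-low, against 77.7, 57.7 and 75.4 in WT. In Top2b-low replicate 2 Six6, Nr5a1, Bsx, Hmx2 and Rax were at 0, as were Fezf1, Hmx2 and Hmx3 in Top2b-low replicate 3, while 0 of the 13 were at 0 in Top2b-low replicate 1 or in WT. Only 7 of the 13 reached the minimum for testing, and a value of 0 allows up to 3 reads, so a 0 does not show absence. The 2.43 of Fezf1 in Top2b-low replicate 2 was also under the value of 3 reads there, 3.64. The part of hypothalamic tissue content in the values of the imprinted genes was not tested. In bulk tissue, fewer cells of a type and less RNA per cell cannot be told apart.

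**Figure D3:**
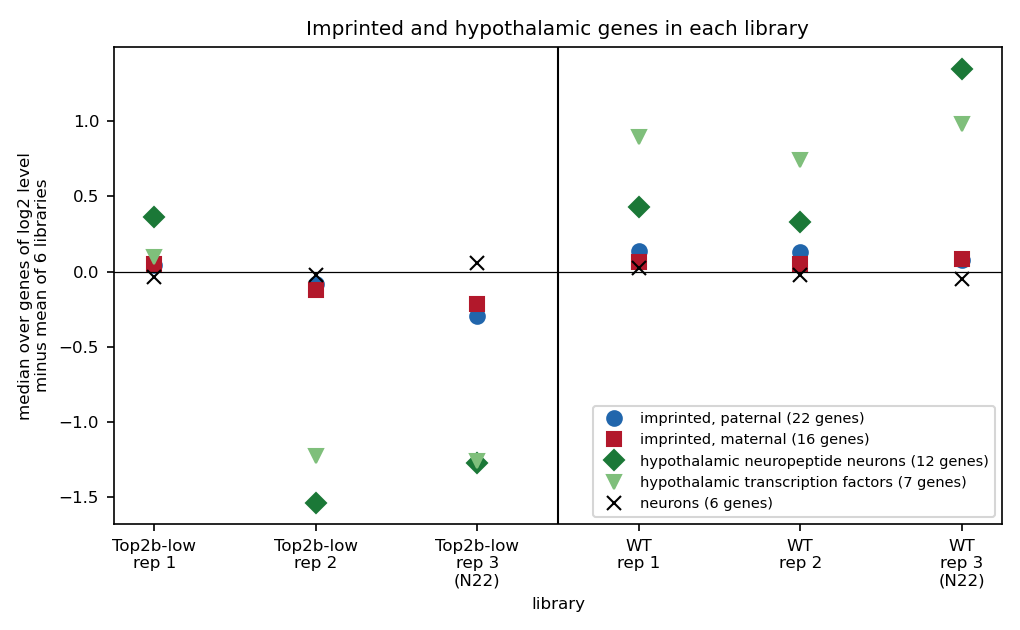
Median over genes of the log2 level minus its mean over the 6 libraries (y axis), for paternally and maternally expressed members, 2 hypothalamic lists and neurons, in each library (x axis, Top2b-low left and WT right). The imprinted and the hypothalamic medians are below 0 in Top2b-low replicates 2 and 3 and above 0 in Top2b-low replicate 1 and the WT libraries, while the neuronal median stays near 0.

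In the Peg3 cluster, all 3 members had lower means in Top2b-low. Zim1, a zinc-finger gene read from the maternal copy, had 290.4, 210.0 and 147 normalised counts in the Top2b-low libraries, against 441, 327 and 358 in the WT libraries. Every Top2b-low library was below every WT library, and replicate 3 was the lowest. Its mean was 216 ± 72.0 in Top2b-low and 375 ± 58.9 in WT (SD, n = 3 each), a log2 fold change of −0.84 (SE 0.25), or −0.62 without the N22 libraries. Zim1 was called by DESeq2 once a term for N22 entered the model (log2 fold change −0.85, adjusted p = 0.0063), where 0.0805% of all tested genes were called lower and 0.00575% higher, and with the replicate number as a block (−0.85, adjusted p = 0.0145). With the same terms limma and edgeR called 0 genes. Peg3, a paternally expressed zinc-finger gene, had 14433, 13797 and 10810.0 normalised counts in the Top2b-low libraries, against 14815, 15674 and 13362 in the WT libraries. Top2b-low replicates 1 and 2 lay inside the WT range, and the log2 fold change was −0.18 (SE 0.12), or −0.11 without the N22 libraries. Usp29, a gene of the deubiquitinase family that starts next to Peg3, had 1495, 1377 and 1177 normalised counts in the Top2b-low libraries, against 1683, 1661 and 1513 in the WT libraries. Its groups did not overlap, and its log2 fold change was −0.27 (SE 0.11).

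Nap1l5, a paternally expressed nucleosome assembly protein gene inside an intron of Herc3, had 9216, 7525 and 7454 normalised counts in the Top2b-low libraries, against 10212, 9471 and 9843 in the WT libraries. The groups did not overlap, the lowest WT library being just above Top2b-low replicate 1. Its log2 fold change was −0.29 (SE 0.10), a mean 18.1% lower in Top2b-low, and DESeq2 with the replicate block called it (adjusted p = 0.0226, where 0.0748% of all tested genes were called lower and 0.0115% higher). With the N22 term in place of the block, DESeq2 did not.

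The Peg10-Sgce cluster held the widest spread. Peg10, a gene derived from a retrotransposon and needed for the placenta, had 1719, 1192 and 485 normalised counts in the Top2b-low libraries, against 1986, 2195 and 1514 in the WT libraries. Top2b-low replicate 1 lay inside the WT range and replicate 3 was far below every other library; the log2 fold change was −0.91 (SE 0.42), or −0.54 without the N22 libraries. Sgce, the epsilon-sarcoglycan gene that is mutated in human myoclonus-dystonia and starts next to Peg10, had 569, 482 and 527 normalised counts in the Top2b-low libraries, against 578, 597 and 577 in the WT libraries. Its groups did not overlap, by a narrow margin, with a log2 fold change of −0.15 (SE 0.09).

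Calcr, the calcitonin receptor gene, had 80.0, 25.5 and 2.96 normalised counts in the Top2b-low libraries, against 68.0, 51.4 and 94.6 in the WT libraries. Top2b-low replicate 3 stood at 5 reads, while Top2b-low replicate 1 was above WT replicates 1 and 2, so the log2 fold change of −1.78 (SE 0.97) became −0.38 without the N22 libraries. Asb4, an ankyrin-repeat gene of hypothalamic neurons, had 80.0, 42.5 and 8.28 normalised counts in the Top2b-low libraries, against 91.1, 72.7 and 93.2 in the WT libraries, with a log2 fold change of −1.43 (SE 0.71), or −0.47 without them. In both of these maternally expressed genes, Top2b-low replicates 2 and 3 were below every WT library and replicate 1 was inside the WT range. Avp and Otp also had their lowest values in Top2b-low replicates 2 and 3, but they were picked by small p from their lists. In those lists 3 of 12 neuropeptide genes and 1 of 7 transcription factors were higher in Top2b-low. A link to Calcr and Asb4 was not tested. Ppp1r9a, which encodes neurabin, a synaptic actin-binding protein, had overlapping groups with 7147, 7722 and 7961 normalised counts in the Top2b-low libraries, against 6501, 7310.4 and 7242 in the WT libraries.

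In the Prader-Willi and Angelman cluster, the Top2b-low mean was 20.7% lower for Ndn and 41.9% for Magel2, and 3.01% for Snrpn and 6.36% for Ube3a. Ndn, or necdin, a MAGE-family protein gene of neurons, had 5151, 4078 and 3570.4 normalised counts in the Top2b-low libraries, against 5245, 5311 and 5581 in the WT libraries. The groups did not overlap, with Top2b-low replicate 1 just below the WT range, and the log2 fold change was −0.35 (SE 0.13), or −0.20 without the N22 libraries. Magel2, a second MAGE-family gene with high hypothalamic expression, had 143, 78.9 and 61.5 normalised counts in the Top2b-low libraries, against 151, 137 and 201 in the WT libraries. Its groups overlapped, since Top2b-low replicate 1 exceeded WT replicate 2, and its log2 fold change was −0.85 (SE 0.31), or −0.43 without the N22 libraries. Mkrn3, a ubiquitin ligase gene known for restraining puberty, had 32.0, 29.1 and 18.3 normalised counts in the Top2b-low libraries, against 30.4, 21.3 and 16.4 in the WT libraries. The groups overlapped, and the Top2b-low library was the higher of each same-numbered pair, with a log2 fold change of 0.22 (SE 0.34) that did not pass the test.

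Snrpn had 14625, 13739.8 and 17357 normalised counts in the Top2b-low libraries, against 14979, 14553 and 17609 in the WT libraries. Its log2 fold change of −0.05 (95% interval −0.31 to 0.22) lay close to 0, and the highest value of each genotype was in its N22 library. Ube3a, the ubiquitin ligase gene lost in Angelman syndrome and read from the maternal copy in neurons, had 3783, 3456 and 2772 normalised counts in the Top2b-low libraries, against 3782, 4145 and 2764 in the WT libraries. The groups overlapped and the log2 fold change was −0.09 (95% interval −0.49 to 0.32), or −0.13 without the N22 libraries. Snhg14, the paternal transcript that runs antisense to Ube3a, had 2425, 1848 and 1729.9 normalised counts in the Top2b-low libraries, against 2337, 2357 and 1523 in the WT libraries, and the groups overlapped as well with a log2 fold change of −0.04 (SE 0.20), or −0.15 without the N22 libraries. In the annotation 1803 exon bases of Ube3a, 8.74% of its exon length, are shared with Snhg14 on the opposite strand. Whether the counting used strand is not given in the sources used here, so reads there cannot be assigned, and neither a silent nor an active Ube3a copy can be told from these totals.

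At Dlk1-Meg3, Dlk1, a paternally expressed membrane protein gene related to Notch ligands, had 628, 432 and 134 normalised counts in the Top2b-low libraries, against 776, 793 and 925 in the WT libraries. No Top2b-low library reached the lowest WT library, and the values were most spread in Top2b-low, 398 ± 249 in Top2b-low and 831 ± 81.2 in WT (SD, n = 3 each). The log2 fold change was −1.32 (SE 0.50), or −0.59 without the N22 libraries and −2.78 in the N22 pair. With 1 N22 library per genotype, the difference between these genotype effects, −2.19, can be set only against the spread among the other 4 libraries, on the assumption that the N22 libraries vary like them. On that footing a limma interaction term called 0 members and 4 genes in all (0.023%), and the adjusted p of Dlk1, the lowest among the members, was 0.058. In the 4 libraries outside N22 alone, DESeq2 called 0 members, where 0.046% of all tested genes were called, all lower.

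Meg3, Rian and Mirg are the maternal noncoding RNAs of that cluster. Meg3, the most abundant of all 43 by normalised count, had 99922, 83392 and 111377 normalised counts in the Top2b-low libraries, against 90679, 96175 and 111051 in the WT libraries; the groups overlapped, with a log2 fold change of −0.02 (95% interval −0.32 to 0.28). Rian, the host transcript of a series of small nucleolar RNAs, ranged over 14801 to 17729 in Top2b-low and 16585 to 18224 in WT. Mirg, the host transcript of a microRNA cluster, had 703, 549 and 673 normalised counts in the Top2b-low libraries, against 768, 717 and 714 in the WT libraries, groups that did not overlap and a log2 fold change of −0.20 (SE 0.11). Begain, a gene for a protein of the synaptic density, ranged over 1562 to 1976 in Top2b-low and 1495 to 2045 in WT.

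**Figure D4:**
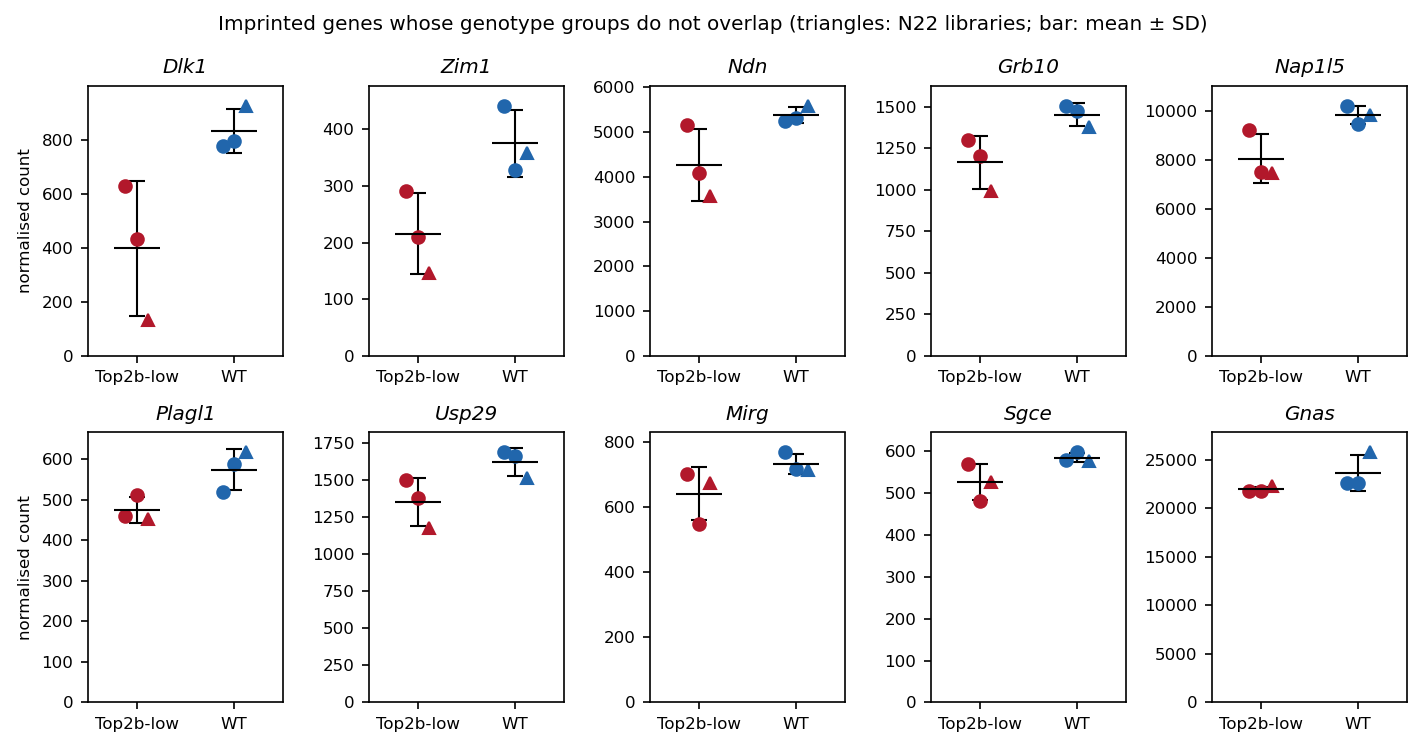
Normalised counts (y axis, from 0) of the 10 imprinted genes whose genotype groups did not overlap, Top2b-low left and WT right, with circles for libraries outside N22, triangles for N22 libraries and bars for mean ± SD (n = 3 each). Relative to the level, the difference between the means is widest in Dlk1 and Zim1 and narrowest in Gnas and Sgce.

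The genes of the growth axis had mixed values. Igf2, the insulin-like growth factor 2 gene, was counted as paternal, and in adult brain it is mainly made in meninges and choroid plexus. Which parental copy is used there was not measured. Igf2 had 2471, 2461 and 1732 normalised counts in the Top2b-low libraries, against 2479, 2249.7 and 1627 in the WT libraries, and the groups overlapped. H19, the maternal noncoding RNA of that locus, had 16.0, 9.71 and 5.92 normalised counts in Top2b-low, against 19.4, 13.8 and 5.69 in WT. Igf2r, which clears the growth factor, had 1221, 1112 and 843 normalised counts in the Top2b-low libraries, against 1105, 1211 and 910.3 in the WT libraries, and its N22 libraries were the lowest. Grb10, an adaptor that dampens insulin and growth factor signalling and is read from the paternal copy in neurons, had 1303, 1207 and 991 normalised counts in the Top2b-low libraries, against 1505, 1478 and 1376 in the WT libraries. Its groups did not overlap, and its log2 fold change was −0.32 (SE 0.11). Plagl1, a zinc-finger transcription factor gene that acts on other imprinted genes in mouse, had 460.2, 511 and 453 normalised counts in the Top2b-low libraries, against 519, 588 and 617 in the WT libraries. All Top2b-low libraries were below the lowest WT library, narrowly for replicate 2, with a log2 fold change of −0.27 (SE 0.10).

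In the Kcnq1 cluster, Cdkn1c, a cell cycle inhibitor gene, ranged over 106 to 126 in Top2b-low and 125 to 133 in WT. Kcnq1ot1, the paternal antisense RNA that silences that cluster in cis, had 489, 483 and 519 normalised counts in the Top2b-low libraries, against 538, 534 and 464 in the WT libraries. The remaining low genes stayed under the test minimum. Phlda2 had 1 read, in WT replicate 3, and 0 reads in each other library, which allows up to 3 reads there. Peg12 had 2, 3 and 3 reads in Top2b-low and 2, 1 and 5 in WT, and Slc22a18 had 6, 4 and 13 reads in Top2b-low and 9, 6 and 9 in WT. No fold is given for these 3.

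Of the single-gene loci and small pairs, Gnas had 21803, 21739.9 and 22269.7 normalised counts in the Top2b-low libraries, against 22614, 22558 and 25747 in the WT libraries. The groups did not overlap, but the difference was small, with a mean 7.2% lower in Top2b-low and a log2 fold change of −0.11 (SE 0.08), or −0.05 without the N22 libraries. Impact, an inhibitor of the stress kinase Gcn2, had 6558, 6393 and 5372 normalised counts in the Top2b-low libraries, against 7182, 7502 and 6416 in the WT libraries; Top2b-low replicate 1 exceeded WT replicate 3, and the log2 fold change was −0.21 (SE 0.10). Inpp5f, a phosphoinositide phosphatase gene, had 2615, 3005 and 2252 normalised counts in the Top2b-low libraries, against 3032, 3124 and 2531 in the WT libraries, with overlapping groups. H13, the signal peptide peptidase gene, had 1365, 1432 and 1018 normalised counts in the Top2b-low libraries, against 1415, 1443 and 1222 in the WT libraries; the groups overlapped and the N22 library was the lowest of each genotype.

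Nnat, a small membrane protein gene of the endoplasmic reticulum, had 4078, 2348 and 2324 normalised counts in the Top2b-low libraries, against 3146, 3179.6 and 4484 in the WT libraries. Top2b-low replicate 1 was above WT replicates 1 and 2, and the other Top2b-low libraries were below all WT libraries. Its log2 fold change of −0.34 (SE 0.24) became −0.03 without the N22 libraries. Peg13, a noncoding RNA within Trappc9, had 8042, 8532 and 6983 normalised counts in the Top2b-low libraries, against 8607, 8027 and 7567 in the WT libraries, and Rasgrf1, an activator of Ras at synapses, 7019, 8071 and 6920.1 normalised counts in Top2b-low, against 6980.4, 7075 and 7774 in WT; both had overlapping groups.

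Copg2, a coatomer gene next to Mest, had 1921, 1911 and 1958 normalised counts in the Top2b-low libraries, against 1951, 1842 and 1855 in the WT libraries, all within a narrow band. Mest, an enzyme of the hydrolase fold, ranged over 554 to 575 in Top2b-low and 448 to 582 in WT. Zrsr1, a splicing factor retrogene inside Commd1, had 754, 617 and 813 normalised counts in the Top2b-low libraries, against 751, 671 and 779 in the WT libraries. Blcap, which surrounds Nnat, ranged over 1504 to 1812 in Top2b-low and 1807 to 1917 in WT, and Trappc9 over 1316 to 1659.5 in Top2b-low and 1456 to 1568 in WT. The exons of Mest and Copg2 share 912 bases and those of Zrsr1 and Commd1 412 bases on opposite strands, so their reads could be mixed.

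By expressed allele, 18 of 22 tested paternal members were lower in Top2b-low, with a median log2 fold change of −0.19 and 7 without overlap of the groups. Of 16 tested maternal members 14 were lower, with a median of −0.10 and 2 without overlap. Over all tested genes, 50.6% were lower and 3.04% were lower without overlap. The difference between the allele classes was not tested. In the 4 libraries outside N22, 18 of the 22 paternal and 11 of the 16 maternal members were lower, where 51.7% of all tested genes were.

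The split between the N22 libraries and the other 4 was tested with genotype in the model, a contrast separate from the genotype difference. The limma test called 16 of 40 members after Benjamini-Hochberg adjustment over all genes. In N22, 12 were lower (30%, where 16.7% of all tested genes were called lower) and 4 higher (10%, where 11.3% were). The count was lower without either N22 library, but only 1 N22 library then remains, so those counts are not given.

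Airn, the paternal noncoding RNA that silences Igf2r in cis, had the largest difference of the 16. It measured 87.4, 98.3 and 15.4 normalised counts in the Top2b-low libraries, against 101, 89.0 and 30.6 in the WT libraries, and both N22 libraries were far below the other 4. Its log2 difference was −2.06 (SE 0.23, adjusted p = 0.00024). Peg10 differed by −1.01 (SE 0.21, adjusted p = 0.0064), but its WT replicate 3 (1514) lay above Top2b-low replicate 2 (1192), and Top2b-low replicate 3 (485) was the library that stood apart. Igf2 differed by −0.52 (SE 0.06, adjusted p = 0.00032). Ube3a differed by −0.45 (SE 0.07, adjusted p = 0.0013), both N22 libraries being below the other 4, and Igf2r by −0.41 (SE 0.07, adjusted p = 0.0034).

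The other members lower in N22 were H13, Inpp5f, Peg3, Impact, Grb10, Usp29 and Peg13, with log2 differences between −0.34 and −0.19. Higher in N22 were Commd1, a copper and trafficking protein gene, by 0.37 (SE 0.10, adjusted p = 0.021), and Begain by 0.36 (SE 0.06, adjusted p = 0.0025), with Snrpn at 0.27 and Meg3 at 0.27. Commd1 measured 249.8, 248 and 304 normalised counts in the Top2b-low libraries, against 257, 236 and 336 in the WT libraries. In the same split, 16 of 16 cerebellar, 7 of 12 meningeal, 4 of 12 choroid plexus, 6 of 11 endothelial and pericyte, 5 of 11 serotonergic and noradrenergic, 4 of 6 astrocyte, 2 of 6 oligodendrocyte, 1 of 6 neuronal and 1 of 4 Y-linked markers were called lower in N22. Called higher in N22 were 2 of 12 hypothalamic neuropeptide genes, 2 of 7 hypothalamic transcription factors and 1 of 6 microglial markers. Over all tested genes, 16.7% were called lower in N22 and 11.3% higher. The summed cerebellar level was 71177, 77205 and 25431 normalised counts in Top2b-low, against 76918, 65027 and 22475 in WT. The summed meningeal level was 3068, 2714 and 1851 in Top2b-low, against 2526, 2889 and 2197 in WT. The part of these tissues and cell types in the N22 differences was not tested, and depth, which is higher in both N22 libraries, cannot be told apart from that split.

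**Figure D5:**
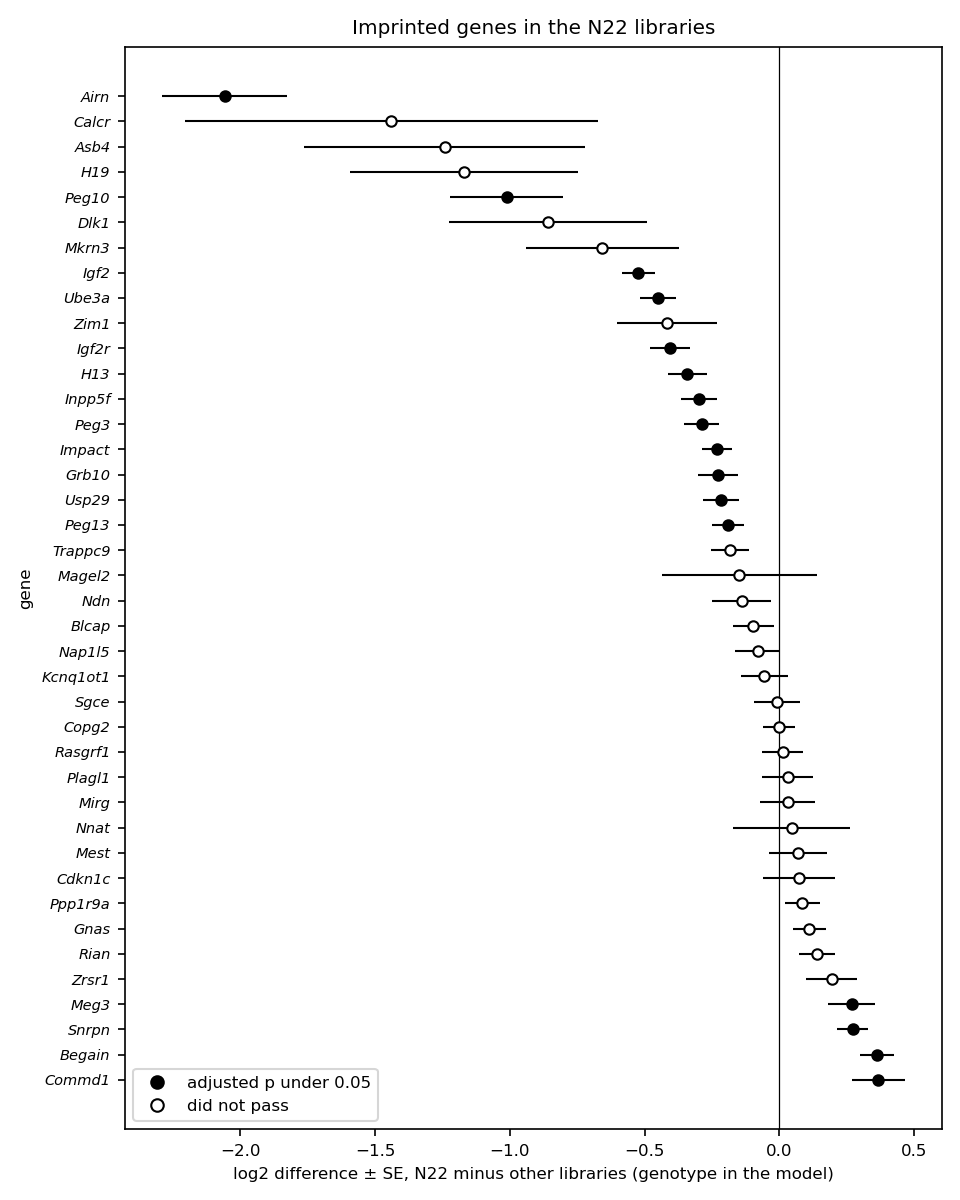
Log2 difference ± SE between the N22 libraries and the other 4, with genotype in the model (x axis), of the 40 tested imprinted genes (y axis), with filled dots for an adjusted p under 0.05. Airn at −2.06 and Peg10 at −1.01 are the lowest filled dots, and Commd1 and Begain are the highest.

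A further list held genes outside the 43 that are reported as imprinted in mouse. Whether each is imprinted in adult brain was not measured. Of 41 found in the table, 32 were tested and 22 were lower in Top2b-low, with a median log2 fold change of −0.08; the groups did not overlap for 5, Rtl1, Atp10a, Pon3, Qpct and Bcl2l1, all lower. Over all tested genes, 50.6% were lower and 3.04% were lower without overlap. The limma test called 0 of the 32, with 3 lower and 0 higher at an unadjusted p under 0.05, where 0.995% and 0.512% of all tested genes were. Rtl1, a retrotransposon-derived gene of the Dlk1-Meg3 cluster, had 36.9, 19.4 and 22.5 normalised counts in the Top2b-low libraries, against 41.3, 52.6 and 54.0 in the WT libraries. Qpct, which forms the pyroglutamate end of peptide hormones, had 235, 225 and 236 normalised counts in the Top2b-low libraries, against 275, 279 and 285 in the WT libraries. Ddc encodes the enzyme that makes dopamine and serotonin from their precursors. It had 273, 262 and 175 normalised counts in the Top2b-low libraries, against 431, 256 and 413 in the WT libraries, and the groups overlapped. Ddc is also 1 of the 11 tested serotonergic and noradrenergic markers, of which 10 were lower, where 50.6% of all tested genes were. Without the N22 libraries 6 of the 11 were lower, where 51.7% of all tested genes were, with a median log2 fold change of −0.02. Their summed levels were 2145, 2191 and 1391 in Top2b-low, against 2642, 2038 and 2252 in WT.

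Genes that set or keep imprints had a median near 0. Of 25 found in the table, 22 were tested, 10 lower and 12 higher in Top2b-low, with a median log2 fold change of 0.01 (−0.01 without the N22 libraries) and 0 at an unadjusted p under 0.05 by limma. Uhrf1, which brings the maintenance methyltransferase to DNA, had 17.2, 23.1 and 23.7 normalised counts in the Top2b-low libraries, against 7.29, 17.5 and 15.6 in the WT libraries. Ezh2, a histone methyltransferase, had 154, 149 and 129 normalised counts in the Top2b-low libraries, against 143, 129 and 117 in the WT libraries, and Atrx, a chromatin remodeller, 5184, 5651 and 5032 normalised counts in Top2b-low, against 4996, 5483 and 4364 in WT. Uhrf1 did not pass the test, though only WT replicate 2 exceeded a Top2b-low library.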

How the data were processed

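RNA-seq libraries of polyadenylated RNA from the left brain of male mice were analysed, 3 Top2b-low and 3 WT, grouped by their titles. The deposited values, a signal for each gene, were counts that the authors had divided by a factor per library. RSEM and mm39 are named in the submitters' processing notes. Not given in the sources used here are the RSEM version, aligner, annotation and strand setting. In each library 100% of deposited values were whole multiples of the value of 1 read (tolerance 1e-06), so whole reads were recovered; whether these were rounded RSEM estimates is not given. On those reads edgeR and DESeq2 each called 0 genes between genotypes.

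Symbols and exon lengths came from GENCODE vM21 (GRCm38), which matched 51498 identifiers and over 99% of reads; since the builds differ, no coordinates are given for the measured genes. Promoter sequences and their positions came from RefSeq on GRCm38.p6. Genes with a mean of at least 10 were compared on log2(normalised count + 1), pseudocount 1, with limma 3.58.1 in R 4.3.3 (intensity trend, two-sided, Benjamini-Hochberg over 17391 genes, threshold 0.05); this scale understates the change of low genes. Because the deposited signal was not counts, edgeR 4.0.16 and DESeq2 1.42.0 were alternatives. A floor is 3 reads and covers counting error only.

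The replicate numbers of the titles were used as a block in an alternative. Same-numbered libraries deviated together (correlations 0.33, 0.35 and 0.68), a pairing seen in the values and not stated in the labels; Top2b-low replicate 2 also correlated with WT replicate 1 at 0.37. The limma, edgeR and DESeq2 fits without added terms, and limma with the N22 term or block, were tested on simulated counts. For the block only the error of the fold change was checked. The simulation held no N22 split, and DESeq2 with the N22 term or block was not tested on it. Replicates within a genotype differed by more than sampling noise. The series text counts mice, so libraries were taken as separate animals.

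Members, gene lists, marker lists and the contrast between N22 and other libraries were chosen with earlier results of these data known. Values in every library are given for members whose genotype groups do not overlap, with an unadjusted limma p under 0.05 (without or with the N22 term or block), among the 6 largest called N22 differences, or leading a cluster, and for Ube3a and the lowest members; for other members, ranges are given. List genes are the 3 with the smallest p.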

Additional observations from a re-analysis of the deposited data

How the results depend on the processing

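Between Top2b-low and WT, limma called 0 genes and 0 members, as did edgeR, DESeq2, pseudocounts of 0.5 and 5, no filter, a mean of at least 50, quantile normalization, no intensity trend, array weights, the N22 term, the replicate block and the 4 libraries outside N22 in limma. With DESeq2, the N22 term gave 15 genes, of which 1 member (Zim1), the replicate block gave 15 genes, of which 2 members (Zim1 and Nap1l5), and the 4 libraries outside N22 gave 8 genes and 0 members; the cause was not tested. Leaving out 1 library gave 0 to 1 genes in limma, the 1 without Top2b-low replicate 1, and 0 members. The median log2 fold change of the tested members was −0.13 and stayed below 0 in each of these settings, between −0.18 without Top2b-low replicate 1 and −0.08 with array weights; leaving out 1 library gave −0.18 to −0.10. The block changed no other call. Of the 40 tested members, 24 kept the sign of their fold change in all settings run and 16 did not. The count of members called between N22 and other libraries, 16 in limma, was 12 to 16 with other tools, filters and pseudocounts. In that split DESeq2 called 14.7% of all tested genes lower and 8.81% higher, and edgeR 15.5% and 14%. The count of members was lower whenever 1 library was left out. Without either N22 library only 1 remains, and the share of all genes called is not given, so the drop is not a result about the members. With 3 libraries per genotype, an exact permutation test of a single gene cannot go below p = 0.1.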
